A study of Mus musculus with 6 samples.

Results

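Keratin transcripts were examined as a check of the purity of sorted mammary luminal progenitors. The genes were 4 keratins of the basal layer (*Krt5*, *Krt14*, *Krt15* and *Krt17*) and 4 of the luminal layer (*Krt7*, *Krt8*, *Krt18* and *Krt19*), chosen by symbol. All 8 were found, each once, among the 18537 known-gene clusters of the deposited table, and all 8 were among the 13692 genes kept after genes with few reads were set aside. The cells came from adult nulliparous *Robo1+/+* mice and from *Robo1−/−* mice that were littermates or of matched age. The latter are homozygous in all tissues for the *Robo1tm1Matl* allele of an axon guidance receptor gene. After removal of CD45, Ter119, CD31 and BP-1 positive cells, luminal progenitors were sorted as CD24 low, CD29 positive and CD61 positive. Poly(A)+ RNA was sequenced from 3 libraries per genotype, *Robo1+/+* gh03, gh09 and gh15 and *Robo1−/−* gh06, gh12 and gh18, each from 2 pooled animals. Values are read counts divided by 1 size factor per library. Whole reads recovered from them numbered 10494297 in gh03, 17433868 in gh09, 14298652 in gh15, 12183461 in gh06, 15185303 in gh12 and 9727191 in gh18.

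*Robo1*, the targeted gene, was read first as a check of the labels. Its normalized values were 289 (gh03), 574 (gh09) and 541 (gh15) for *Robo1+/+*, and 130.1 (gh06), 214 (gh12) and 177 (gh18) for *Robo1−/−*. Each *Robo1−/−* library was thus below each *Robo1+/+* library, for which a two-sided exact permutation test gives p = 0.10, the smallest that 3 libraries against 3 allow.

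*Robo1−/−* gh18 stood apart from the other libraries. For each of 12453 tested genes with a known transcript, the log2 deviation of a library from the mean of the other 5 was set against the GC content of the transcript. Spearman's rho across genes, which are not independent replicates, was −0.81 in gh18 and between 0.17 and 0.61 in the other 5 libraries. The median deviation of gh18 was 0.92 for the 10% of genes poorest in GC and −2.30 for the 10% richest in GC. Transcripts of the 8 keratins had a GC content of 52.3% (*Krt7*) to 58.9% (*Krt17*), above the median of 50.4% for tested genes. The median log2 deviation of the 8 keratins was −1.70 in gh18, and between −0.06 and 0.65 in the other libraries. All 8 keratins had their lowest value of the 6 libraries in gh18, as did 38.3% of all tested genes. A GC correction then removed from every library a lowess curve, on GC content, of its log2 deviation from the mean of all 6 libraries. After this correction, 3 of the 8 (*Krt7*, *Krt8* and *Krt19*) were lowest in gh18, against 26.5% of the genes corrected. Log2 fold changes of the 8 keratins are therefore given with gh18, without it and with the GC correction. So are median log2 fold changes of lists of other genes with more than 1 tested gene.

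Keratins form the intermediate filaments of epithelial cells. Each filament is built from pairs of an acidic type I keratin and a basic type II keratin, so the genes of both types are expressed together in a given layer. In the mammary gland, KRT5 (type II) and KRT14 (type I) pair in the basal, myoepithelial layer, while KRT8 (type II) and KRT18 (type I) pair in the luminal layer. Fewer cells of a type and less RNA per cell cannot be told apart in RNA from pooled cells, and no library of sorted basal cells is used here, so a share of keratin transcripts is not a share of cells. The set was split into basal and luminal keratins only, so that share does not tell luminal progenitors from mature luminal cells. In NCBI37/mm9, the type I genes of the set lie on chromosome 11, apart from *Krt18*. They are *Krt15* (chr11:99993072-99997263), *Krt19* (chr11:100002124-100009979), *Krt14* (chr11:100064476-100068862) and *Krt17* (chr11:100117531-100122343), all on the minus strand. The type II genes lie on chromosome 15, where *Krt7* (chr15:101241474-101260744) is on the plus strand, and *Krt5* (chr15:101537501-101543322) and *Krt8* (chr15:101827142-101834773) are on the minus strand. *Krt18* (chr15:101858647-101862457, plus strand), the type I partner of *Krt8*, is its neighbor there.

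Luminal keratins were far more abundant than basal keratins in each of the 6 libraries. Levels of the keratins were compared as the normalized value per kb of the longest coding transcript. By the mean of this level over 6 libraries, *Krt18* (19990) and *Krt8* (19866) held ranks 4 and 5 among 12453 tested genes with a known transcript, *Krt19* (10963) rank 40 and *Krt7* (1638) rank 490. The basal keratins followed at 158 for *Krt15* (rank 5772), 115 for *Krt14* (rank 6934), 99.1 for *Krt17* (rank 7424) and 48.9 for *Krt5* (rank 9245). The order of *Krt18* and *Krt8* was not settled, since *Krt18* was the higher of the pair in 4 of 6 libraries and their log2 difference in level per kb was 0.05 ± 0.19 (SD, n = 6). Nor was that of *Krt15* and *Krt14* (0.72 ± 0.88, SD, n = 6) or of *Krt14* and *Krt17* (0.12 ± 0.30, SD, n = 6). *Krt8* exceeded *Krt19*, *Krt19* exceeded *Krt7*, *Krt7* exceeded *Krt15* and *Krt17* exceeded *Krt5* in all 6 libraries. *Krt7* was the lowest luminal keratin in every library, and its level per kb was still between 4.35 times (gh18) and 18.3 times (gh12) that of the highest basal keratin of the same library. That basal keratin was *Krt15* in 5 libraries and *Krt14* in gh03. The size of this gap depends on the length used for *Krt7*, whose longest coding transcript has 4094 bases, 1374 of them coding. By coding length, which was chosen after the data were seen, the gap was 10.45-fold (gh18) to 44.02-fold (gh12), and by merged exon length it was 2.657-fold to 11.19-fold.

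**Figure D1:**
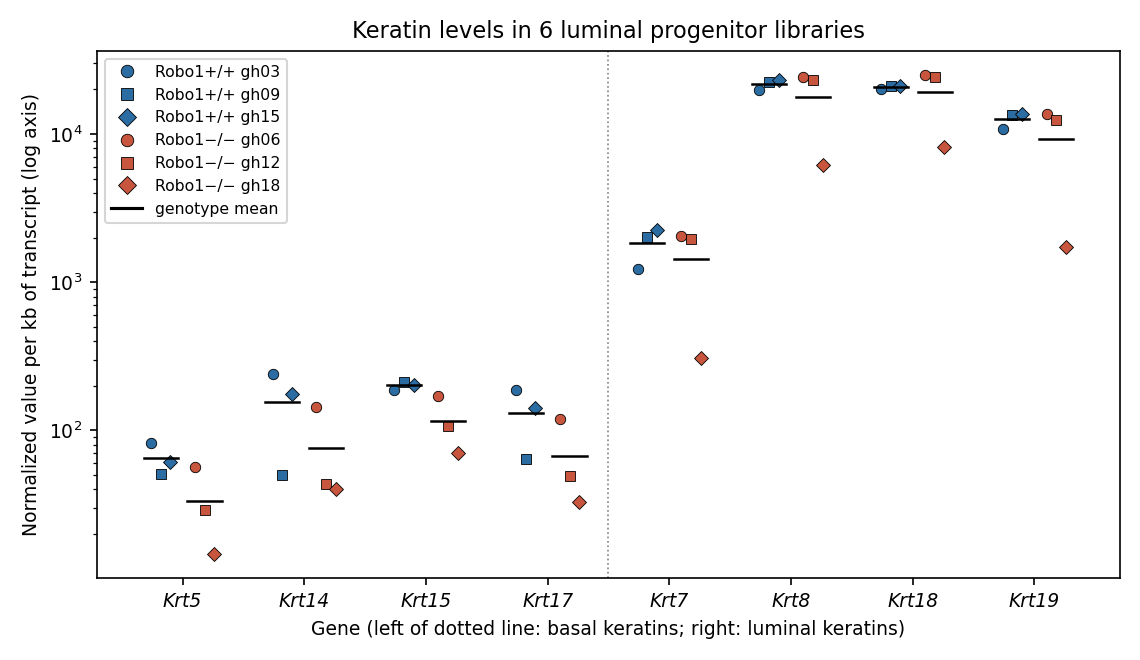
Level of each keratin, as normalized value per kb of transcript on a log axis, in 3 *Robo1+/+* (blue) and 3 *Robo1−/−* (red) libraries, with a symbol for each library and a black line at the genotype mean. The luminal keratins lie above the basal keratins in every library, and *Robo1−/−* gh18 (red diamonds) is the lowest library for all 8 genes.

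The basal share of keratin transcripts was between 0.367% and 1.32% in the 6 libraries. Summed per kb, the 4 basal keratins made up 1.32%, 0.634% and 0.960% of all 8 keratins in *Robo1+/+* gh03, gh09 and gh15. The same share was 0.746%, 0.367% and 0.954% in *Robo1−/−* gh06, gh12 and gh18. The genotypes overlapped, with gh03 the highest and gh12 the lowest library. *Robo1+/+* luminal progenitors had a mean share of 0.972% ± 0.343 (SD, n = 3), and those of *Robo1−/−* mice had 0.689% ± 0.297 (SD, n = 3). On the log2 scale, the ratio of summed basal to summed luminal keratins was −6.73 ± 0.54 (SD, n = 3) for *Robo1+/+* libraries, against −7.28 ± 0.72 (SD, n = 3) for *Robo1−/−*. The difference of −0.54 was smaller than the pooled SD of 0.63. It was −0.14 without gh12, −0.29 without gh03, −0.82 without gh09 and −0.83 without gh18. Without gh09, whose share was the lowest of *Robo1+/+*, the shares of the genotypes no longer overlapped. With any other single library left out they still overlapped. The share was little moved by the GC correction (0.966% in *Robo1+/+* and 0.696% in *Robo1−/−*). The correction raised both classes in gh18. Its shift in log2 value was 0.898 to 1.69 for the basal keratins and 1.152 to 1.422 for *Krt8*, *Krt18* and *Krt19*. It could therefore change their ratio little.

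These shares rest on between 18458 (gh18) and 127731 (gh09) keratin reads per library, of which 186 (gh18) to 1062 (gh15) came from basal keratins. As a share of keratin reads, with no division by length, the basal keratins made up 1.37% in gh03 (95% Wilson interval 1.28 to 1.46) and 0.380% in gh12 (0.346 to 0.417). The interval was widest in gh18, at 1.01% (0.873 to 1.16). Reads of the 8 keratins together made up 0.655% to 0.783% of all reads in 5 libraries and 0.190% in gh18.

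**Figure D2:**
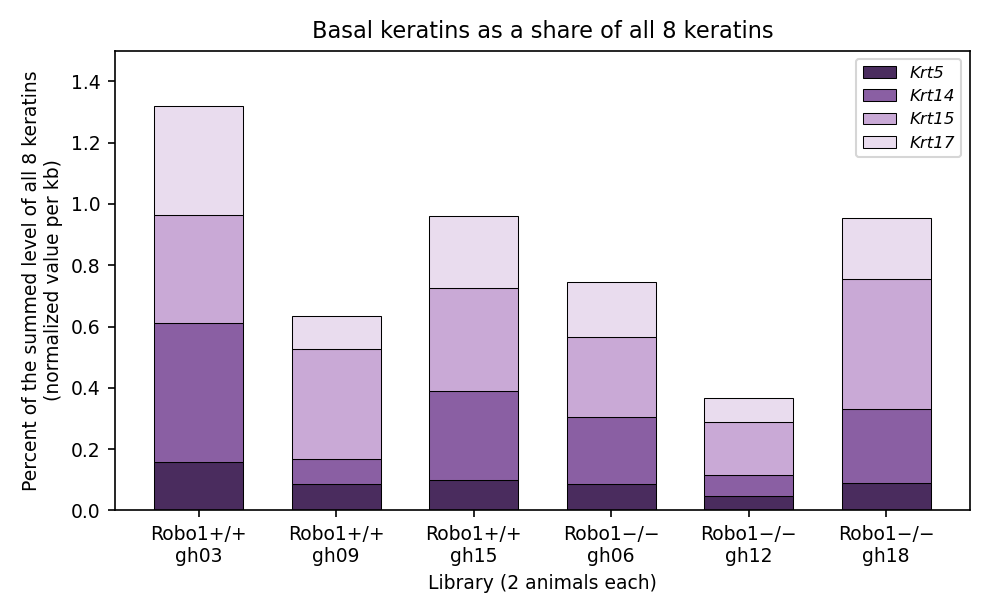
Summed level of the 4 basal keratins as a percent of the summed level of all 8 keratins, each as normalized value per kb, in the 6 libraries, with the parts of *Krt5*, *Krt14*, *Krt15* and *Krt17* stacked. The bars reach 1.32% in gh03 and 0.367% in gh12, and the genotypes overlap.

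No keratin passed an adjusted p of 0.05 between the genotypes, and neither did any other gene in limma. Limma with Benjamini-Hochberg adjustment called 0 of 13692 genes (0%), while 231 genes (1.69%) had an unadjusted p under 0.05. DESeq2 called 1 gene, RP23-282C23.3, which is not a keratin, and edgeR called 0. All 8 keratins had a log2 fold change below 0, as did 49.8% of tested genes. The median log2 fold change was −1.02 for the 4 basal and −0.63 for the 4 luminal keratins, beside 0.00 for all tested genes. With the GC correction the medians were −0.45 and −0.13, and without gh18 they were −0.65 and 0.15. Of the 8 keratins, 1 (*Krt15*) had an unadjusted limma p under 0.05 and 1 (also *Krt15*) had each *Robo1−/−* library below each *Robo1+/+* library, which held for 4.58% of tested genes. None had each *Robo1−/−* library above each *Robo1+/+* library, which held for 4.83%.

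*Krt15* is a type I keratin of basal cells and of stem cell regions of stratified epithelia. Its normalized values were 318, 361 and 346 in gh03, gh09 and gh15, and 290.0, 182 and 119.7 in gh06, gh12 and gh18. The *Robo1+/+* libraries lay close together, within 1.13-fold, and the *Robo1−/−* libraries lay below them and spread over 2.42-fold. Limma gave a log2 fold change of −0.88 with a standard error of 0.36 (unadjusted p = 0.044, adjusted p = 0.86), and the two-sided exact permutation p was 0.10. After the GC correction the limma estimate became −0.49 (unadjusted p = 0.056), and without gh18 it became −0.57 (unadjusted p = 0.050).

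*Krt14*, the type I partner of *Krt5*, had the widest range of the 8 keratins among *Robo1+/+* libraries. Its normalized values were 407, 84.7 and 296 in gh03, gh09 and gh15, a 4.81-fold range, and 245, 74.2 and 68.6 in gh06, gh12 and gh18. The *Robo1+/+* library gh09 lay below the *Robo1−/−* library gh06. Its log2 fold change of −1.004 had a standard error of 0.73 (limma, adjusted p = 0.86). The estimate became −0.41 after the GC correction and −0.68 without gh18.

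*Krt17*, a type I keratin of basal cells and skin appendages that is induced on injury, had normalized values of 291, 99.5 and 220.4 in gh03, gh09 and gh15. In gh06, gh12 and gh18 it had 184, 76.0 and 51.1. As for *Krt14*, gh03 was the highest and gh09 the lowest *Robo1+/+* library, and the genotypes overlapped. Limma gave a log2 fold change of −1.04 with a standard error of 0.59 (adjusted p = 0.86). This became −0.30 after the GC correction and −0.64 without gh18. *Krt5*, the type II keratin of the basal layer, had normalized values of 181, 111 and 133 in gh03, gh09 and gh15, and 123, 63.2 and 32.1 in gh06, gh12 and gh18. By the mean over 6 libraries it was the least abundant of the 8, though *Krt14* (84.7) and *Krt17* (99.5) were lower in gh09. Its value in gh18 stood for 22 reads (95% exact Poisson interval 13.8 to 33.3). The genotypes overlapped through gh06, and limma gave a log2 fold change of −1.12 with a standard error of 0.52 (unadjusted p = 0.067, adjusted p = 0.86). The estimate became −0.57 after the GC correction and −0.64 without gh18.

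*Krt8* and *Krt18* code for the primary keratin pair of simple epithelia. *Krt8* had normalized values of 35984, 40523 and 41606 in gh03, gh09 and gh15, and 43715, 42137 and 11182 in gh06, gh12 and gh18. The values of gh06 and gh12 were above all 3 *Robo1+/+* values, while gh18 had 27.4% of the mean of the other 5 libraries. The fold change on the log2 scale was −0.52 with gh18 (limma, standard error 0.53, adjusted p = 0.86), 0.13 without gh18 and 0.038 after the GC correction. *Krt18* had normalized values of 28162, 29550 and 29475 in gh03, gh09 and gh15, and 35214, 33989 and 11522 in gh06, gh12 and gh18. The *Robo1+/+* values lay within 1.05-fold of each other, and gh06 and gh12 were again above them. Its log2 fold change of −0.28 had a standard error of 0.44 (limma, adjusted p = 0.88), and became 0.25 without gh18 and 0.22 after the GC correction.

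*Krt19*, the smallest keratin and a type I keratin that lacks most of the tail domain, had normalized values of 17028, 21143 and 21456 in gh03, gh09 and gh15. In gh06, gh12 and gh18 it had 21690, 19644 and 2705. It was the member with the widest range among *Robo1−/−* libraries (8.02-fold), with gh18 at 13.4% of the mean of the other 5 libraries. Limma gave a log2 fold change of −0.91 with a standard error of 0.76 (adjusted p = 0.86), 0.062 without gh18 and −0.29 after the GC correction. *Krt7*, a type II keratin of glandular and ductal epithelia, had normalized values of 5066, 8239 and 9278 in gh03, gh09 and gh15, and 8362, 8042 and 1253 in gh06, gh12 and gh18. The genotypes overlapped, and gh03 was the lowest library after gh18. Its log2 fold change of −0.73 had a standard error of 0.73 (limma, adjusted p = 0.86), and became 0.17 without gh18 and −0.60 after the GC correction. *Krt7* has the least GC-rich transcript of the 8, and the correction raised its log2 value in gh18 by 0.30, against 0.90 to 1.69 for the other 7.

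**Figure D3:**
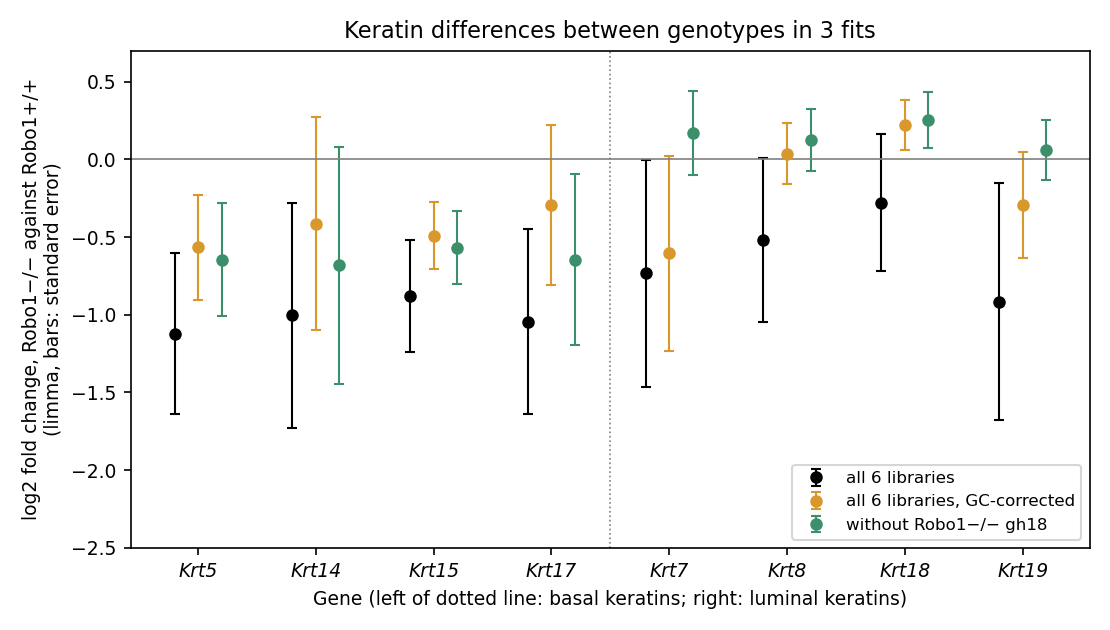
Log2 fold change of each keratin between *Robo1−/−* and *Robo1+/+* libraries from limma, with its standard error as a bar, for all 6 libraries (black), with the GC correction (orange) and without *Robo1−/−* gh18 (green). The 4 basal keratins stay below 0 in all 3 fits, while the luminal keratins lie between 0.062 and 0.25 without gh18.

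The make-up of each class was compared between libraries by its shares per kb. Within the luminal class, *Krt8* held an almost fixed share, between 37.2% and 38.4% in all 6 libraries. *Krt18* made up 35.1% to 39.1% in 5 libraries and 50.04% in gh18, where *Krt19* made up 10.4% in place of 20.1% to 22.7%. The ratio of *Krt8* to *Krt18*, type II to type I, was 0.991, 1.06 and 1.09 in gh03, gh09 and gh15, and 0.963, 0.962 and 0.753 in gh06, gh12 and gh18. All 3 *Robo1−/−* ratios were thus below the *Robo1+/+* ratios, by a margin between gh03 and gh06 that is smaller than the SD of 0.053 over *Robo1+/+* libraries. The summed ratio of type II to type I over the 8 keratins was between 0.646 and 0.721. The basal class was less even. *Krt5* held 9.26% to 13.4% of it, while *Krt14* ranged from 13.2% (gh09) to 34.4% (gh03) and *Krt15* from 26.8% (gh03) to 56.3% (gh09). The ratio of *Krt15* to *Krt14* per kb was 0.780 in gh03 and 4.25 in gh09, both *Robo1+/+*. The ratio of *Krt5* to its partner *Krt14* was between 0.344 and 0.390 in gh03, gh15, gh06 and gh18, 0.661 in gh12 and 1.01 in gh09.

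Across the 6 libraries, *Krt5*, *Krt14* and *Krt17* had the same order of values, with gh03 the highest, then gh15, gh06, gh09, gh12 and gh18. *Krt15* departed from this order, since gh09 was its highest library. Pearson's r of log2(value + 1) over the 6 libraries was 0.97 for *Krt14* with *Krt17* and 0.65 for *Krt14* with *Krt15*. For *Krt5* it was 0.94 with *Krt15*, 0.94 with *Krt17* and 0.83 with *Krt14*. It was 0.97 to 1.00 among the luminal keratins, all of which share the low value of gh18. These coefficients are descriptions of 6 libraries, and all of them include gh18, whose GC trend stood apart. The 5 genes most like the mean of the basal keratins, among the 11478 tested genes that averaged 50 or more, were *Prodh*, *Cox8a*, *Foxo3*, *Nob1* and *Itga10* (r between 0.978 and 0.987 over 6 libraries). *Prodh*, a mitochondrial enzyme of proline breakdown, had normalized values of 346, 201 and 268 in gh03, gh09 and gh15, and 287, 114.5 and 86.1 in gh06, gh12 and gh18. *Abtb1*, *Nlrx1*, *Glis3*, *Creld1* and *Tspan4* were most like the mean of the luminal keratins (r between 0.9988 and 0.9997 over 6 libraries). All 5 were lowest in gh18, as for *Abtb1*, at 129.8, 173 and 195 in gh03, gh09 and gh15 and 196, 180.5 and 19.0 in gh06, gh12 and gh18.

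Other keratins were also present. The table held 42 keratin genes, of which 26 had at least 3 reads in some library and 20 were tested. The 8 members made up 90.0% to 96.5% of the summed keratin level per kb. Of the 15 other type II keratins in the table, 8 were tested and 0 had an unadjusted p under 0.05, with a median log2 fold change of −0.35 (0.005 after the GC correction and 0.159 without gh18). Their summed normalized value was 3841, 13347 and 12133 in gh03, gh09 and gh15, and 7221, 6688 and 3820 in gh06, gh12 and gh18. *Krt6a*, a keratin of stressed and proliferating epithelia, was the most abundant of them. Its level per kb was 1210, 3977 and 3828 in gh03, gh09 and gh15 and 1926, 1981 and 1124 in gh06, gh12 and gh18. Next came *Krt4* (mean normalized value 979), a keratin of internal stratified epithelia, and *Krt6b* (831). Of the 19 other type I keratins in the table, 4 were tested and 0 had an unadjusted p under 0.05, with a median log2 fold change of −0.72 (−0.319 after the GC correction and −0.519 without gh18) and a summed normalized value of 279 (gh18) to 675 (gh15). *Krt16*, the type I keratin usually expressed with *Krt6a*, led them with a mean normalized value of 307, followed by *Krt23* (78.4) and *Krt10* (33.5). *Krt6a*, *Krt6b* and *Krt16* did not follow the order of *Krt14*, since each was lower in gh03 than in gh09 and gh15.

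Sequence shared with these keratins could bear on the values of *Krt5* and *Krt14*, which was not tested. Of the 2116 stretches of 75 bases in the *Krt5* transcript, 100 also occur in *Krt6a*, and of the 1624 in *Krt14*, 96 occur in *Krt16*. Reads were sequenced in pairs, and a mate outside a shared stretch can place a pair that a single read would not. How reads that match several genes were counted is not given in the sources used here. If all reads of the shared stretches were counted for both genes, *Krt6a* would bring a normalized value of 116 (gh18) to 411 (gh09) to *Krt5*, more than the whole value of *Krt5* in 5 of 6 libraries. *Krt16* would bring 7.496 (gh18) to 31.5 (gh15) to *Krt14*, which is 35.2% of the *Krt14* value in gh09 and 3.54% in gh03. In *Krt8*, 726 of 1731 stretches (41.9%) also occur in a copy at chr7:24142113-24143830, inside the gene *Nlrp4e*, so a read within them does not by itself tell the gene from its copy. No stretch of *Krt15*, *Krt17*, *Krt7*, *Krt18* or *Krt19* occurs elsewhere. The longest stretch that *Krt14* shares with *Krt16* is shown because a 75-base read from within it does not by itself tell the genes apart. It is coding sequence of the GENCODE M1 transcript, written 5′ to 3′ along the transcript. Capitals mark the 57 bases that code for the helix initiation motif, the conserved start of the keratin rod.
Krt14 bases 399 to 532 of the transcript, 134 bases shared with Krt16: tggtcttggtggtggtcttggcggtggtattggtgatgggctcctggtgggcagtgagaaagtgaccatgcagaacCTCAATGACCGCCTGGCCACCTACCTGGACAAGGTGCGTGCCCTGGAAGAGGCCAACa

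Genes that anchor keratins and genes that regulate them were described by list, with values not divided by length unless given per kb. Of 19 anchors and partners, 17 were tested, 0 had an unadjusted p under 0.05 and the median log2 fold change was −0.17 (0.084 after the GC correction and −0.019 without gh18). The highest normalized values were those of *Dsp*, which links keratins to desmosomes (mean normalized value 7118), *Itga6*, a subunit of the hemidesmosomal integrin, and *Dst*, a linker of keratins to hemidesmosomes, while per kb *Jup* (1787), *Itga6* (1381) and *Dsg2* (875.5) led. The summed normalized value of the list was lowest in gh03 (34783) and gh18 (35272), and between 46722 and 59641 in the other 4 libraries. Of 20 lineage factors, 17 were in the table and tested, 0 had an unadjusted p under 0.05 and the median log2 fold change was 0.07 (0.063 after the GC correction and 0.002 without gh18). *Ehf* (mean normalized value 4487), *Klf4* and *Elf5* led this list, whose sum stayed between 28414 (gh15) and 32687 (gh06). *Trp63*, the master regulator of basal keratin genes, was low in all libraries, with normalized values of 19.1, 22.7 and 48.8 in gh03, gh09 and gh15, and 24.2, 36.6 and 46.7 in gh06, gh12 and gh18. Its order differed from that of *Krt14*, as gh03 was its lowest library.

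Other genes of basal, myoepithelial cells were detected as well, and their part in the basal share was not tested. Of 29 such genes, 26 were tested, 0 had an unadjusted p under 0.05, and the median log2 fold change was 0.13 (0.217 after the GC correction and 0.181 without gh18). Their summed normalized value was 17893, 17392 and 20036 in gh03, gh09 and gh15, and 17804, 20883 and 24105 in gh06, gh12 and gh18. *Itgb1*, *Itga6* and *Cav1*, none of which is restricted to basal cells, had the highest values and made up most of this sum. Of the contractile genes, named after their values were seen, *Acta2* (smooth muscle actin) had normalized values of 508, 129 and 219 in gh03, gh09 and gh15, and 335, 247 and 144 in gh06, gh12 and gh18. *Myh11* (smooth muscle myosin) had 209, 52.5 and 86.3 in gh03, gh09 and gh15, and 204, 102 and 77.3 in gh06, gh12 and gh18. For both genes gh03 was the highest and gh09 the lowest library. Of the 26 tested genes, 11 were highest in gh03 (15.6% of all tested genes were), 5 were lowest in gh03 (17.8% of all) and 10 were lowest in gh09 (9.5% of all). *Cnn1* was highest in gh06 and *Oxtr* in gh18, and *Trp63*, *Cav1*, *Lgr5* and *Moxd1* were lowest in gh03. None of the 29 genes was without reads in all libraries.

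Markers of luminal cells were abundant. Of 20 luminal progenitor genes, 19 were in the table and tested, and *Trf* (mean normalized value 34817), *Ltf* and *Mfge8* had the highest values, and *Trf* (11498), *Lcn2* (9907) and *Mfge8* (7607) had the highest per kb. *Kit*, a receptor that defines luminal progenitors, was between 4209 (gh06) and 5644 (gh03), and *Elf5*, a transcription factor of the alveolar lineage, between 2366 (gh15) and 3901 (gh03). The median log2 fold change of this list was 0.22 (0.311 after the GC correction and 0.475 without gh18). An unadjusted p under 0.05 was found for 3 of the 19 genes, all with a log2 fold change above 0, and for 1.69% of all tested genes. They were *Csn3*, *Lalba* and *Hey1*. *Csn3*, a casein gene, had a log2 fold change of 0.854 (0.455 after the GC correction and 0.795 without gh18). *Lalba*, also a milk protein gene, had 0.791 (0.821 after the GC correction and 0.947 without gh18). Of the 3 genes, *Hey1*, a Notch target, also had a log2 fold change over 1 in size, a rule that 0.84% of tested genes met. It had normalized values of 743, 621 and 395 in gh03, gh09 and gh15, and 1587, 1666 and 708 in gh06, gh12 and gh18. Limma gave it a log2 fold change of 1.12 with a standard error of 0.41 (adjusted p = 0.86), 1.52 without gh18 and 1.11 after the GC correction. The summed normalized value of the list was 100749, 122186 and 104738 in gh03, gh09 and gh15, and 140549, 149977 and 95044 in gh06, gh12 and gh18.

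Genes of hormone-sensing mature luminal cells were present beside them. *Prlr*, the prolactin receptor (mean normalized value 28835), *Areg*, a growth factor induced by estrogen, and *Ptn* (kgCluster20425) had the highest normalized values. Per kb, *Areg* (11136), *S100a6* (8912) and *Ly6a* (4449) were highest. *Esr1*, the estrogen receptor, was between 1346 (gh03) and 2694 (gh12), and *Pgr*, the progesterone receptor, between 1721 (gh03) and 5481 (gh06). All 16 genes were tested, and 1, *Pgr*, had an unadjusted p under 0.05, as did 1.69% of all tested genes, with a log2 fold change of 0.757 (limma, adjusted p = 0.86), 1.233 after the GC correction and 0.871 without gh18. For the list, the median log2 fold change was 0.17 (0.106 after the GC correction and 0.335 without gh18). The summed normalized value was 64150, 87846 and 71787 in gh03, gh09 and gh15, and 107777, 92070 and 84164 in gh06, gh12 and gh18. Of 13 pan-luminal genes other than keratins, all tested, *Cdh1*, *Cldn4* and *Cd24a* had the highest normalized values, and *Cldn4* (9466), *Cd24a* (9273) and *Epcam* (8192) the highest per kb. Of the 13, 1 had an unadjusted p under 0.05, against 1.69% of all tested genes. It was *Cd24a*, higher in *Robo1−/−*, while the median log2 fold change was −0.24 (−0.052 after the GC correction and 0.028 without gh18). *Cldn4*, a tight junction protein, followed the luminal keratins, with normalized values of 14323, 19628 and 21751 in gh03, gh09 and gh15, and 21451, 22576 and 3015 in gh06, gh12 and gh18. *Cdh1*, E-cadherin, did not, and had 17040 in gh18 against 14051 to 21234 in the other libraries.

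Markers of cells that the sort should remove were low or near 0 for the most part, and their part in the keratin values was not tested. Of 10 leukocyte genes, 7 were in the table and 2 were tested. *Ptprc*, which codes for the depleted antigen CD45, had at most 1 read in any library, and *Cd68* was the highest (mean normalized value 102), followed by *Csf1r* (14.7) and *Lyz2* (3.765). The leukocyte sum was 121, 161 and 139 in gh03, gh09 and gh15, and 121, 123 and 96.3 in gh06, gh12 and gh18. Of 8 endothelial genes, 7 were in the table and 2 were tested. *Cdh5* had at most 1 read in any library. *Pecam1*, which codes for the depleted antigen CD31, had 16 (gh18) to 98 (gh12) reads. Its normalized values were 48.35, 70.5 and 38.5 in gh03, gh09 and gh15, and 55.2, 89.8 and 23.35 in gh06, gh12 and gh18. *Esam* followed *Pecam1* (mean normalized value 7.06). *Eng* made up most of the sum of 323, 846 and 825 in gh03, gh09 and gh15, and 656, 1312 and 75.9 in gh06, gh12 and gh18. Of 10 fibroblast genes, 7 were tested, and *Dcn* was the highest (mean normalized value 480), followed by *Col3a1* (93.6) and *Pdgfra* (92.1). Their sum was 864, 924 and 845 in gh03, gh09 and gh15, and 1301, 437 and 784 in gh06, gh12 and gh18. Like *Acta2* and *Myh11*, *Col3a1* was highest in gh03 (175.6) and lowest in gh09 (43.9). *Dcn*, the most abundant of the list, was instead highest in gh09 (655) and lowest in gh12 (88.9), with 389 in gh03. Of the 7 tested genes, 3 were highest in gh03 (15.6% of all tested genes were), 3 in gh06 and 1 in gh09. In gh09, 2 of the 7 were lowest (9.5% of all). For adipocytes, 2 of 6 genes were in the table, *Lpl* was the 1 tested, *Fabp4* had 1 to 5 reads, and the sum was 372, 70.5 and 199.8 in gh03, gh09 and gh15, and 152, 57.7 and 223 in gh06, gh12 and gh18. For erythroid cells, 3 of 7 genes were in the table, *Alas2* was the 1 tested, and the sum was at most 69.8 (gh09). *Epor* had at most 11 reads, and *Hbb-b1* had 2 reads in gh03 and 0 in the other libraries. The median log2 fold change of tested fibroblast genes was −0.119 (0.213 after the GC correction and 0.261 without gh18). It was −0.418 (−0.104 and 0.555) for the 2 endothelial genes and −0.231 (0.007 and −0.263) for the 2 leukocyte genes.

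The genes of the antigens used for the sort were expressed in all libraries. *Itgb1*, which codes for CD29, had normalized values of 7258, 7275 and 8201 in gh03, gh09 and gh15, and 6673, 8536 and 11580 in gh06, gh12 and gh18. *Itgb3*, which codes for CD61, ranged from 387 (gh03) to 1317 (gh12). Its genotypes overlapped. *Cd24a* had normalized values of 10674, 14373 and 14034 in gh03, gh09 and gh15, and 21142, 20715 and 19935 in gh06, gh12 and gh18. Each *Robo1−/−* library was above each *Robo1+/+* library, as held for 4.83% of tested genes, and the two-sided exact permutation p was 0.10. Limma gave *Cd24a* a log2 fold change of 0.67 with a standard error of 0.21 (unadjusted p = 0.014, adjusted p = 0.86). It was 0.40 after the GC correction and 0.697 without gh18.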

How the data were processed

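According to the methods of the study, the authors cut reads to 75 bases, discarded repeat-derived reads using bowtie2, aligned the remainder to NCBI37/mm9 using TopHat and took normalized counts from DESeq2, while the submitters' processing notes name DESeq. The counting tool and its use of strand are not given in the sources used here. The deposited values are a signal per known-gene cluster, read counts divided by 1 size factor per library. Dividing by the value of 1 read returned whole reads for 100% of values, within 0.1 read. Limma (version 3.58.1, R 4.3.3) was fitted to log2(value + 1) of the 13692 genes kept by filterByExpr of edgeR (version 4.0.16), with the empirical Bayes trend, no covariate and Benjamini-Hochberg adjustment, so fold changes understate those of low genes. The exact permutation test was two-sided. DESeq2 (version 1.42.0), edgeR and limma-voom were run on recovered reads. The scripts were tested on simulated data. Lengths, GC content and coordinates came from GENCODE M1 (NCBI build 37), and 85.9% of clusters matched a transcript by symbol. The members and lists were chosen with earlier results of these data known. Genes named are the 8 keratins, the 3 of each list with the highest values, not divided by length, and those highest per kb where these differ, list genes with an unadjusted p under 0.05 and a log2 fold change over 1 in size, the 5 most alike in pattern, *Robo1* and the sort antigens. Others were named after their values were seen. A p-value measures the spread between libraries of 2 pooled animals. The labels give no batch or litter per library. Intervals cover counting error only. The sequence that *Krt5* shares with another keratin is not reported here.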

Additional observations from a re-analysis of the deposited data

How the results depend on the processing

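The log2 fold change of each of the 8 keratins was recomputed in 16 other fits, which reuse the same libraries and are not independent. All 64 values of the 4 basal keratins stayed below 0, and no keratin reached an adjusted p of 0.05 (adjusted p between 0.55 and 1.00 over all fits of limma, edgeR, DESeq2 and limma-voom). Of all 128 values, 6 changed sign. With 1 library left out, the log2 fold change ranged from −1.199 (without gh06) to 0.17 (without gh18) for *Krt7*, from −0.856 to 0.13 for *Krt8*, from −0.554 to 0.25 for *Krt18* and from −1.439 to 0.062 for *Krt19*, and only the value without gh18 was above 0. With the GC correction it was 0.038 for *Krt8* and 0.22 for *Krt18*. The cause was not tested. The unadjusted p of *Krt15* was not under 0.05 with edgeR, with the GC correction or without gh03, gh09, gh15, gh12 or gh18. Keratins under an unadjusted p of 0.05 numbered 3 without gh06 and 2 without gh09.

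DESeq2 called 1 gene past an adjusted p of 0.05, and every other fit called 0. Genes with an unadjusted p under 0.05, 231 with all libraries, numbered 415 with no filter, 879 without gh06, 579 without gh18, 130 without gh03, 117 without gh15 and 131 without gh12.

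The basal share of keratins moved by more than its SD where *Krt15* was not counted (0.624% in *Robo1+/+*) and where *Krt5* and *Krt14* were set against *Krt8* and *Krt18* (0.520% in *Robo1+/+* and 0.312% in *Robo1−/−*). The mean log2 ratio of basal to luminal keratins was lower in *Robo1−/−* under all 16 alternatives. These reuse the same libraries and are not independent, so the shared sign adds no evidence of a genotype difference. The shares of the genotypes overlapped in every alternative except the one without gh09. Dividing by coding length or by the stretches found nowhere else was chosen after the data were seen, and gave *Robo1+/+* shares of 0.941% and 0.780%. By counting error, *Krt5*, with 22 to 142 reads per library, was the least precisely measured of the 8 keratins except in gh09. There *Krt14* (108 reads) and *Krt17* (127 reads) had fewer reads than *Krt5* (141 reads).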
